A study of Mus musculus with 18 samples.

Results

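Perineuronal net components were examined in the frontal cortex of APP/PS1 mice with and without farnesyltransferase (FT) in forebrain neurons. The 10 genes were taken by name from the 55487 genes of the deposited count table: the lecticans Acan, Bcan, Ncan and Vcan, the link proteins Hapln1, Hapln2 and Hapln4, the glycoprotein Tnr, the receptor phosphatase Ptprz1 and the hyaluronan synthase Has3. The rule used gene names alone, although the list was drawn up with earlier results of these data known, and all 10 passed the filter on low counts that left 17414 genes for testing.

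Perineuronal nets are a dense extracellular matrix that wraps the soma and proximal dendrites of certain neurons, above all the fast-spiking interneurons that express parvalbumin. Hyaluronan, a long sugar polymer made by synthases in the cell membrane, forms the backbone. Lecticans, which carry chondroitin sulfate chains, bind hyaluronan through link proteins, and the trimeric glycoprotein tenascin-R ties their other ends together. In the cortex the parts are made by different cells, since neurons, astrocytes and cells of the oligodendrocyte lineage each contribute, and some of these genes also serve the matrix around nodes of Ranvier and the diffuse matrix between cells.

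The study asked how the loss of neuronal FT changes the cortical transcriptome in a mouse model of amyloid deposition. RNA from 18 mice aged 9 to 10 months was sequenced, with 3 females and 3 males in each of 3 genotypes. APP/PS1 mice carry the transgenes of that name on a B6C3 background and, in this breeding, were homozygous for floxed alleles of the FT β-subunit and lacked Cre (FT f/f Cre-). In APP/PS1/FTnKO mice there were the same transgenes and floxed alleles and, in addition, Cre (Cre+) under the CamKIIα promoter, which acts in forebrain excitatory neurons after birth, so that other cells of the tissue keep the enzyme. By the methods the WT mice were FT f/f littermates without Cre. The record of the data names them C57BL/6J instead. No group had Cre without the floxed alleles, so that an effect of Cre itself and of the loss of FT cannot be told apart here.

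Each library is a separate mouse, and the total counts were 15925432 to 21030935. In Fntb, the gene of the deleted subunit, normalised counts (CPM, TMM-scaled counts relative to the library total) lay between 7.84 and 14.7 in the knockout, between 14.2 and 32.1 in APP/PS1 and between 14.1 and 32.2 in WT mice. APP/PS1 mice 19553 and 19554 had 28.7 and 32.1 CPM, and WT mice 19718 and 19721 had 32.2 and 30.8 CPM. The other APP/PS1 and WT mice had at most 17.1 CPM, leaving aside WT mouse 19622, which is described below. The highest APP/PS1/FTnKO mouse lay among the lowest mice of the other genotypes, and the log2 fold change of APP/PS1/FTnKO against APP/PS1 mice, -0.77 (SE 0.26), did not pass the test (edgeR quasi-likelihood test, FDR 0.251). App, the gene that the transgene carries, and Prnp, from which its expression vector derives, exceeded WT levels by 0.89 and 1.58 on the log2 scale in APP/PS1 mice (edgeR, FDR 6.7e-05 and 2.7e-09). WT mouse 19622 stood apart from the other 17 and went against its label as frontal cortex: Tbr1, a marker of deep-layer cortical projection neurons, was at 0.252 CPM against 75.3 to 137.7 CPM in the other mice, and Gabra6, a marker of cerebellar granule cells, was at 400.2 CPM and at 0 in 13 of the 17. It was left out of all comparisons below unless it is named, so that there were 5 WT, 6 APP/PS1 and 6 APP/PS1/FTnKO mice.

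Levels across genes were compared per length, as normalised counts divided by exon length (RPKM) over the 17 mice. Bcan, which encodes brevican, the smallest lectican, had the highest level at 75.2 ± 6.85 RPKM (SD, n = 17), followed by Hapln4 at 36.3 ± 5.33 RPKM and Ncan at 28.1 ± 3.33 RPKM. Bcan lay above Hapln4 in every mouse, while the ranges of Hapln4 and Ncan overlapped although Hapln4 was the higher of the pair in 16 of 17 mice. Ptprz1 had 18.4 ± 1.61 RPKM, Tnr 17.5 ± 2.09 RPKM and Hapln2 11.4 ± 2.81 RPKM, and neighbours in this stretch of the order overlapped. Hapln1 at 3.34 RPKM and Vcan at 1.97 ± 0.228 RPKM were each apart from their neighbours. Acan, the gene of aggrecan, which is the lectican most closely tied to nets around parvalbumin neurons, had only 0.549 ± 0.125 RPKM, and Has3 had 0.468 ± 0.0740 RPKM. Their ranges overlapped, and with 51 to 121 counts of Acan and 37 to 70 counts of Has3 per library these 2 genes had the fewest counts of the 10. The spread over mice, as SD in percent of the mean CPM, was widest for Hapln2 (24.6%) and Acan (22.8%) and narrowest for Ptprz1 (8.74%) and Bcan (9.12%).

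**Figure D1:**
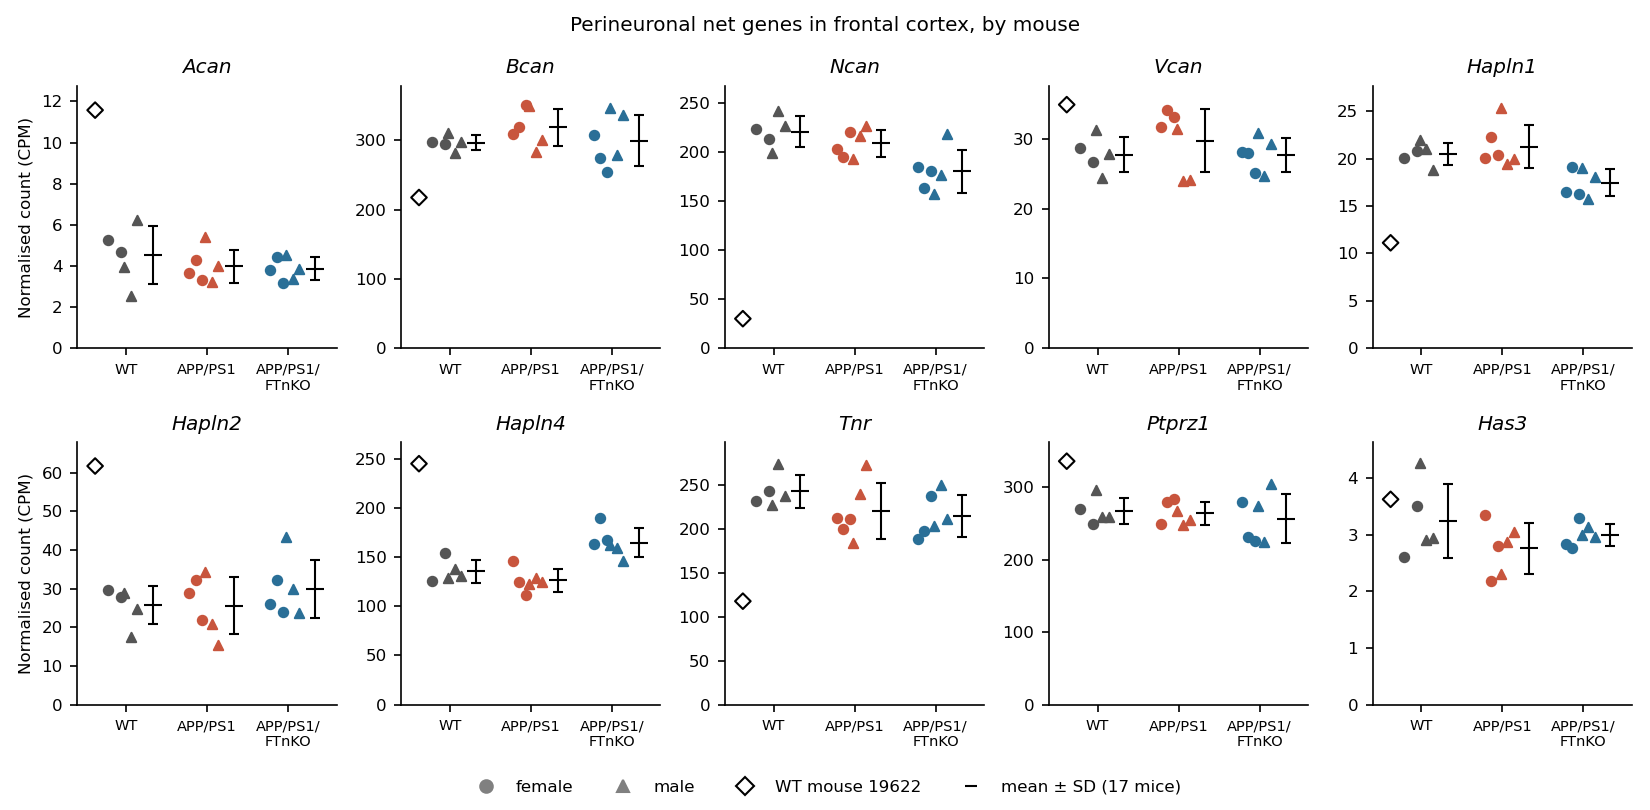
Normalised count (CPM, y axis from 0) of each net gene in every mouse by genotype, with circles for females, triangles for males, and bars for the mean ± SD of the 17 mice. The open diamond is WT mouse 19622, scaled with all 18 mice. APP/PS1/FTnKO mice lie above every APP/PS1 mouse in Hapln4 and below every APP/PS1 mouse in Hapln1.

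Lectican and link protein genes lie beside each other in the mouse genome (GRCm38). Ncan (ENSMUSG00000002341, chr8:70093085-70120873, minus strand) and Hapln4 (ENSMUSG00000007594, chr8:70083457-70090862, plus strand) point towards each other with 2222 bases between them. Bcan and Hapln2 on chromosome 3 lie 21519 bases apart, and Vcan and Hapln1 on chromosome 13 lie 43659 bases apart, with no protein-coding gene between the members of any of these pairs. Hapln4 overlapped no other annotated gene. Ncan overlaps the microRNA gene Mir7066 on its own strand, Has3 overlaps Chtf8 on the opposite strand, and Vcan, Hapln1 and Tnr overlap predicted genes, so that the counts of these genes are less certain, also because the sources used here do not name the strand setting of the counting.

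Ncan and Hapln4 were the members called by edgeR in the comparisons below, with other settings changing which members were called, and for Ncan the stretch before its start site is shown, as the place where its transcription begins. The 250 bases before the start in the RefSeq table are given 5′ to 3′ (GRCm38.p6, chr8:70120845-70121094, minus strand). Of these, 29 bases lie inside the gene in the annotation used for positions. The stretch holds the letters of a GC box and, on the opposite strand, those of a TATA box, both in capitals. The latter, at -11 to -6 from the start, fall among the 29 bases inside the gene, and they are a match of letters only:
Ncan: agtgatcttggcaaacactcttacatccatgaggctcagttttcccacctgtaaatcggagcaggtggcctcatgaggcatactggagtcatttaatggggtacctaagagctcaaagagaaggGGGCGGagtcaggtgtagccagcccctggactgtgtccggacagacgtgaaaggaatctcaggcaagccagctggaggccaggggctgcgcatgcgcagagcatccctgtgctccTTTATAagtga
Of the 10 members 8 matched the RefSeq promoter table, all but Hapln4 and Has3. A GC box (GGGCGG, either strand) was found in 5 of the 8, against 32.7% of 32851 promoters, and a TATA box (TATAAA, either strand) in Ncan alone, against 12.4%. The share of G and C ran from 54.4% (Ncan) to 74.4% (Acan) in these 5. It ran from 46.8% (Tnr) to 54.4% (Hapln1) in the other matched members, beside a median of 52.4% over all promoters. Its part in the count of GC boxes was not tested. None of the 8 held TGACG, the core of a cAMP response element, CACGTG, an E-box, or TCACCCCAC, a sterol element, which were found in 17.8%, 6.02% and 0.496% of promoters.

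The first comparison, APP/PS1 with WT mice, shows how the net genes stood under amyloid deposition alone. None of the 10 net genes passed the test (edgeR, FDR below 0.05), while 1.5% of all 17414 genes did (1.32% upwards and 0.178% downwards), and none had genotypes that did not overlap, against 2.4% of all genes. None had an unadjusted p below 0.05 in edgeR or in DESeq2 on the 17 mice, and DESeq2 also called none. When the integrity number of the RNA (RIN) was added to the fit, Hapln2 had a log2 fold change of -0.44 (SE 0.14, edgeR, unadjusted p = 0.00723, FDR 0.323), and with all 18 mice 1 member was below 0.05 in either tool. The log2 fold changes ran from -0.23 in Has3 to 0.11 in Bcan with a median of -0.04, beside a median over all genes of -0.0023. For the genes with many counts the data limit the size of any difference. The 95% intervals of the log2 fold change were -0.05 to 0.27 for Bcan, -0.23 to 0.08 for Ncan, -0.17 to 0.15 for Ptprz1, -0.32 to 0.05 for Tnr and -0.25 to 0.04 for Hapln4. For Acan the interval ran from -0.60 to 0.22 and for Hapln2 from -0.43 to 0.41, so that the data leave room for larger differences there. In the same comparison Gfap, the intermediate filament of reactive astrocytes, rose by 2.78 on the log2 scale, from 112 ± 26.6 CPM (SD, n = 5) to 788 ± 349 CPM (SD, n = 6; edgeR, FDR 0.000323). Of the 8 markers of plaque-associated microglia 7 were called higher, and all 8 had log2 fold changes above 0.

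The second comparison, APP/PS1/FTnKO with APP/PS1 mice, carries the question of the study. Hapln4, which encodes the brain link protein Bral2 that stabilises the binding of brevican and hyaluronan, was the member that passed the test. It had 125.3, 153.8, 129.2, 137.9 and 130.8 CPM in the 5 WT mice. In the 6 APP/PS1 mice the lowest, median and highest values were 111.4, 124.7 and 146.0 CPM, and in the 6 APP/PS1/FTnKO mice they were 146.4, 163.0 and 190.2 CPM. Every APP/PS1/FTnKO mouse lay above every APP/PS1 mouse, although the lowest of the former and the highest of the latter all but touched. The mean was 165 ± 14.3 CPM with and 126 ± 11.3 CPM without the knockout (SD, n = 6 and 6). This is a log2 fold change of 0.38 (SE 0.065, 95% interval 0.25 to 0.52) or 30.4% higher (edgeR, FDR 0.0170), and by p it ranked 14 of the 17414 genes. Of the 10 members 1 was thus called, where 0.327% of all genes were (0.184% upwards and 0.144% downwards).

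The size of the Hapln4 difference was stable over the alternatives tried, while its call was not. The call was kept in 16 of the 17 fits that left out a mouse, with FDR 0.0658 without APP/PS1 mouse 19554, and was lost when only the 12 mice of these genotypes were fitted (log2 fold change 0.38, FDR 0.0587). With WT mouse 19622 among 18 mice the log2 fold change was again 0.38, with an FDR of 0.609, and 2 genes in all were called. DESeq2 gave an FDR of 5.6e-05.

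Hapln1, the link protein of cartilage and of nets, went the other way without passing the test. The 5 WT mice had 20.1, 20.8, 21.9, 21.0 and 18.8 CPM, the APP/PS1 mice 19.4, 20.2 and 25.4 CPM (lowest, median and highest) and the APP/PS1/FTnKO mice 15.8, 17.3 and 19.1 CPM. All 6 APP/PS1/FTnKO mice lay below all 6 APP/PS1 mice, by a narrow gap. Hapln1 and Hapln4 were thus 2 of 10 members whose genotypes did not overlap, against 0.97% of all genes. The log2 fold change of Hapln1 was -0.28 (SE 0.075, 95% interval -0.44 to -0.13) with an FDR of 0.123 in edgeR and of 0.0358 in DESeq2.

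Ncan, the gene of neurocan, showed a log2 fold change of -0.21 between these genotypes (SE 0.071, edgeR, FDR 0.241). The remaining 7 members had log2 fold changes from -0.10 in Vcan to 0.22 in Hapln2, each with an interval that included 0. With RIN as a covariate Hapln2 had a log2 fold change of 0.41 (SE 0.12, edgeR, FDR 0.101). For the abundant genes these intervals were tight, with -0.24 to 0.06 for Bcan, -0.21 to 0.14 for Tnr and -0.20 to 0.11 for Ptprz1. The median over the 10 members was -0.04, and over all genes it was -0.0016.

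**Figure D2:**
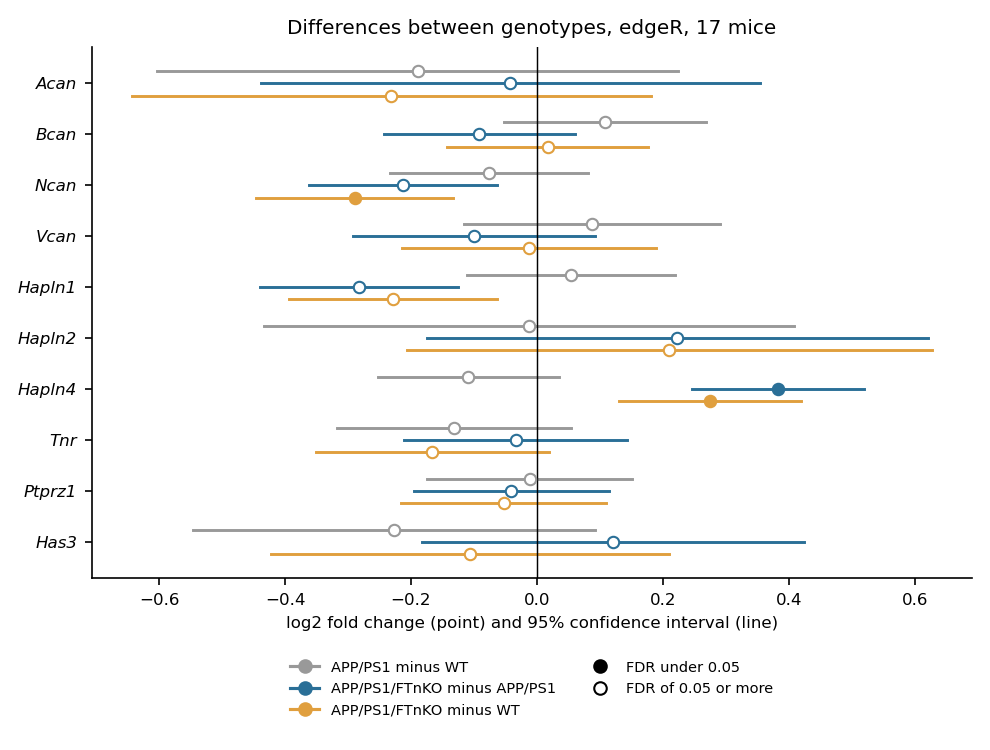
Log2 fold change (points) and 95% confidence interval (lines) of each net gene in 3 comparisons of genotypes, from edgeR on 17 mice. Filled points passed FDR 0.05: Hapln4 in both comparisons of APP/PS1/FTnKO mice, and Ncan in APP/PS1/FTnKO against WT mice.

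The third comparison, APP/PS1/FTnKO with WT mice, combines transgenes and knockout and shares its mice with the other comparisons, so that its values are not independent of theirs. Of the 10 members 2 passed the test, Hapln4 upwards and Ncan downwards, where 3.87% of all genes did (2.22% upwards and 1.65% downwards). Ncan had 223.6, 213.2, 198.4, 241.3 and 226.3 CPM in the 5 WT mice. Its lowest, median and highest values were 192.2, 209.3 and 226.2 CPM in APP/PS1 mice and 156.9, 178.5 and 218.3 CPM in APP/PS1/FTnKO mice. Apart from mouse 19720 with 218.3 CPM, every APP/PS1/FTnKO mouse was below every mouse of the other genotypes. The means were 180 ± 21.5 CPM (SD, n = 6) and 221 ± 15.9 CPM (SD, n = 5), a log2 fold change of -0.29 (SE 0.074, 95% interval -0.45 to -0.13; edgeR, FDR 0.0390). Hapln4 was 0.27 higher on the log2 scale (SE 0.069, 95% interval 0.13 to 0.42; edgeR, FDR 0.0346), with 165 ± 14.3 CPM against 135 ± 11.3 CPM, and WT mouse 19053 with 153.8 CPM lay among the APP/PS1/FTnKO mice. None of the 10 members had genotypes that did not overlap here, against 5.6% of all genes.

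Both calls lay near the threshold. Hapln4 was called in 10 and Ncan in 8 of the 17 fits that left out a mouse, with FDRs up to 0.113 for Hapln4 without WT mouse 18944 and up to 0.114 for Ncan without WT mouse 19718. With WT mouse 19622 included the log2 fold changes were 0.11 for Hapln4 and -0.05 for Ncan, with FDRs of 0.672 and 0.95. When RIN entered the fit, the FDRs were 0.0539 and 0.0698, and Hapln1 passed instead (log2 fold change -0.29, FDR 0.0332). The RIN of the knockout mice lay between 7.6 and 8.7, that of APP/PS1 mice between 7.7 and 8.7 and that of WT mice between 8.5 and 8.8.

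Because Hapln4 rose where Hapln1 and Ncan were low, their counts were also set against each other within each library, where scaling has no part. These ratios were chosen after the values had been seen and were not tested. Hapln4 had 8.12 to 10.3 counts for each count of Hapln1 in APP/PS1/FTnKO mice, 5.89 to 7.40 in WT and 4.82 to 7.26 in APP/PS1 mice, so that APP/PS1/FTnKO mice stood clear of both. For each count of Ncan there were 0.671 to 1.16 counts of Hapln4 in APP/PS1/FTnKO mice against 0.507 to 0.719 in APP/PS1 and 0.560 to 0.722 in WT mice, with an overlap.

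Apart from Ncan, 22 tested genes lie within 250000 bases of Hapln4. Of these 0 were called by edgeR in any comparison, where 1.5%, 0.327% and 3.87% of all genes were called in the order of the comparisons above. An unadjusted p below 0.05 was found for 1, 1 and 3 of them, where 14.0%, 11.5% and 22.1% of all genes had one.

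**Figure D3:**
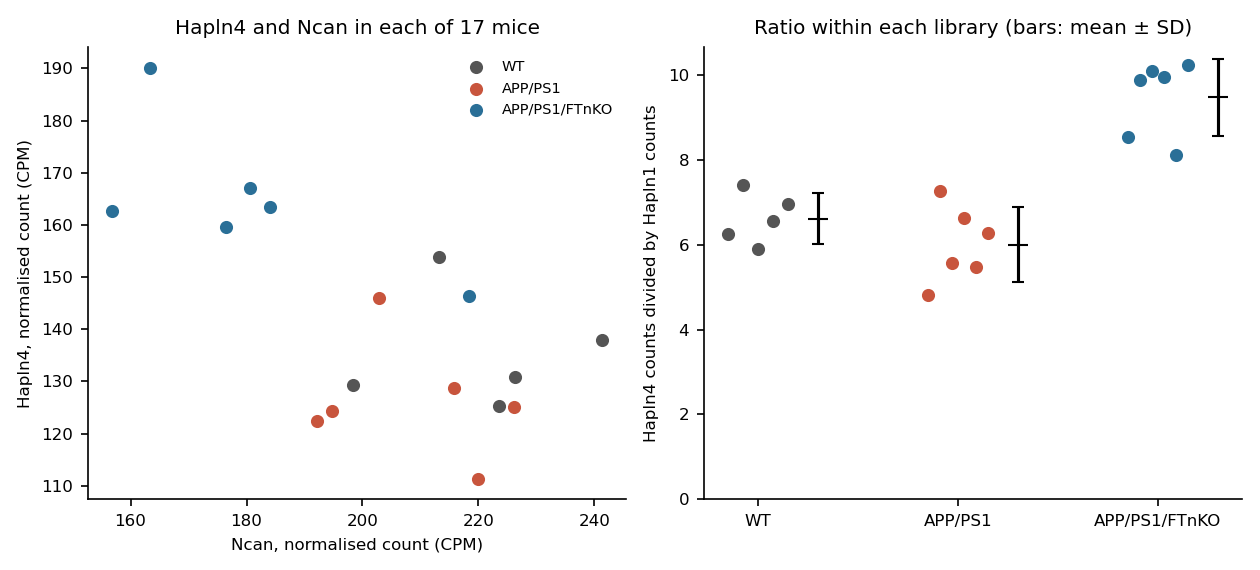
Left, Hapln4 against Ncan (both CPM) in each of 17 mice by genotype; right, counts of Hapln4 divided by counts of Hapln1 in each library, with mean ± SD beside the points. The 6 APP/PS1/FTnKO mice have Hapln4 to Hapln1 ratios of 8.12 to 10.3, above all other mice.

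Sex made no called difference to the net genes. Female minus male log2 fold changes ran from -0.10 in Tnr to 0.09 in Vcan, and 0 of 10 members were called by edgeR, with 0 at an unadjusted p below 0.05, where 0.0689% of all genes were called. The effect of genotype did not differ between the sexes in a called way either: 0 of 10 members passed an interaction test in any of the 3 comparisons, and 0.0% of all genes did. The smallest unadjusted p among the members was 0.0357, for Vcan in the comparison of APP/PS1/FTnKO with APP/PS1 mice (edgeR, FDR 1.0).

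The net genes are made by different cells, and in bulk tissue fewer cells of a type and less RNA per cell cannot be told apart. Summed markers of cell types were therefore set beside the members. The 7 markers of excitatory neurons, among which Camk2a holds most of the counts, summed to between 3841 and 5616 CPM (median 4255 CPM) in the knockout, to between 4644 and 6737 CPM (median 5664 CPM) in APP/PS1 and to between 5168 and 6981 CPM (median 5466 CPM) in WT mice, and no marker of the list was at 0 in all mice. Slc17a7, the vesicular glutamate transporter VGLUT1, fell in APP/PS1/FTnKO against WT mice by 0.46 on the log2 scale (edgeR, FDR 0.0396), and 0 of the 7 markers were called against APP/PS1 mice by edgeR, with 2 at an unadjusted p below 0.05 and 0 calls in DESeq2. The 11 markers of parvalbumin interneurons, which carry most nets, summed to medians of 1435, 1226 and 1222 CPM in WT, APP/PS1 and APP/PS1/FTnKO mice. Of these Kcnc2, a potassium channel of fast-spiking cells, fell in APP/PS1/FTnKO against WT mice by 0.35 on the log2 scale (edgeR, FDR 0.0445), while Pvalb itself did not pass any test, with 28.8 CPM in APP/PS1/FTnKO, 23.5 CPM in APP/PS1 and 27.7 CPM in WT mice. Markers of oligodendrocytes, their precursors and endothelium had 0 genes called by edgeR in any comparison (0, 2 and 0 tests with an unadjusted p below 0.05) and 0 in DESeq2. With RIN as a covariate Olig2, a marker of the precursors, was called in APP/PS1/FTnKO against APP/PS1 mice (log2 fold change 0.42, edgeR, FDR 0.0291), as was Slc17a7 (-0.47, FDR 0.0155). Against WT mice Slc17a7 and Kcnc2 were no longer called with RIN as a covariate (edgeR, FDRs 0.0602 and 0.0508) or with WT mouse 19622 included.

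Across the 17 mice 14 of 50 relations between a member and a marker sum passed a permutation test (Benjamini-Hochberg over the 50, 100000 resamples, for which 1e-05 is the smallest p). Ncan followed the excitatory neuron markers most closely, with r = 0.89 (permutation p = 1e-05, adjusted 0.00025), rho = 0.86 (permutation p = 5e-05) and r = 0.83 without the 2 mice farthest from the median. It remained at r = 0.82 after genotype and sex had been taken out (permutation, adjusted p = 0.0007). Ncan was thus low in the mice with low excitatory neuron markers within genotypes too, and the part of these markers in its lower level in APP/PS1/FTnKO mice was not tested. Hapln4 went against the same markers, with r = -0.71 (permutation p = 0.00168, adjusted 0.007) and rho = -0.71 (permutation p = 0.00208), but after genotype and sex r was -0.32 (permutation p = 0.206). Hapln1 had r = 0.46 (permutation p = 0.0621) and rho = 0.47 (permutation p = 0.0590), and after genotype and sex its r was -0.14 (permutation p = 0.590).

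Several members ran with or against glial markers. Hapln2, the link protein of nodes of Ranvier, had r = 0.90 with oligodendrocyte markers (permutation p = 2e-05, adjusted 0.000333, rho = 0.79, r = 0.79 without the 2 farthest mice). Vcan, whose product versican is made by oligodendrocyte precursors, had r = 0.86 with the precursor markers (permutation p = 1e-05, adjusted 0.00025, rho = 0.88), and Bcan had r = 0.84 with astrocyte markers (permutation p = 5e-05, adjusted 0.000625, rho = 0.80). Tnr went against the precursor markers, with r = -0.81 (permutation p = 0.00014, adjusted 0.00117, rho = -0.82). Each of these relations held after genotype and sex, with r of 0.92, 0.88, 0.90 and -0.79. None of these members was tied to a single list, since other relations of theirs also passed over the 17 mice. Tnr had r = -0.76 with oligodendrocyte and -0.75 with astrocyte markers, and Vcan had 0.78 and 0.72 with them. With the precursor markers Hapln2 had r = 0.76 and Bcan 0.68, and Hapln2 had -0.73 with the excitatory neuron markers. CPM are shares of a library, so that a rise in some genes lowers others.

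**Figure D4:**
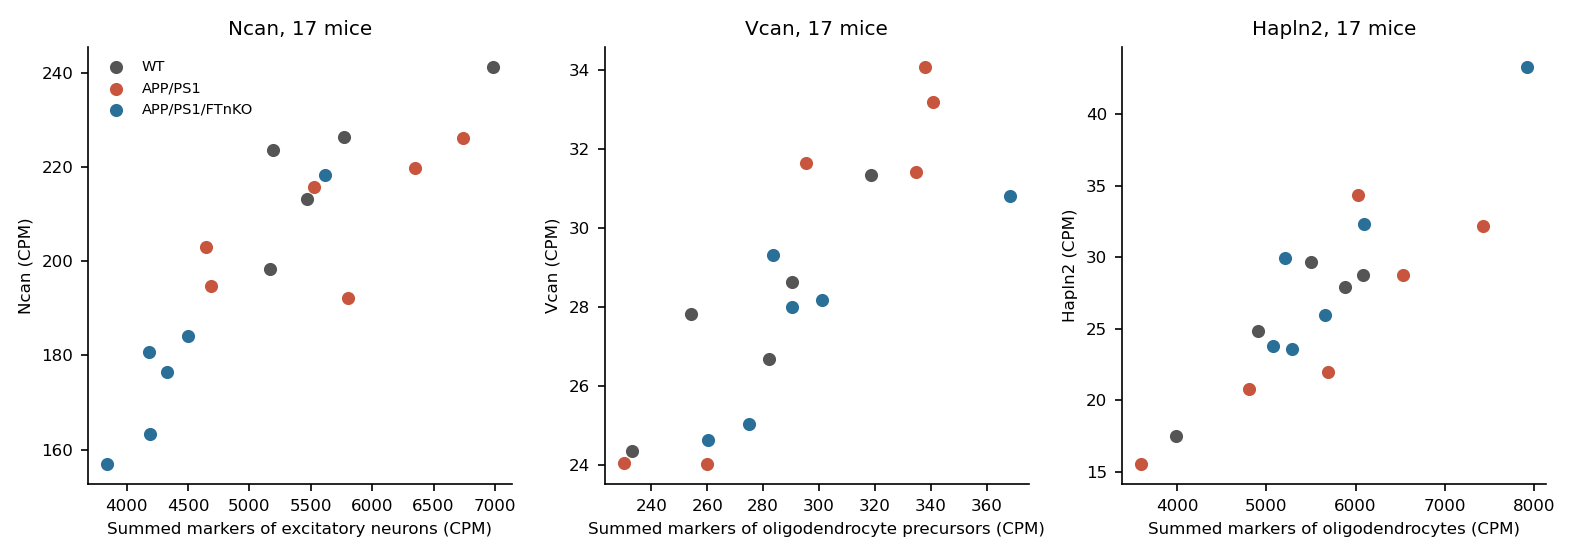
Ncan, Vcan and Hapln2 (CPM, y axes) against the summed markers of excitatory neurons, oligodendrocyte precursors and oligodendrocytes (CPM, x axes) in 17 mice, coloured by genotype; axes do not start at 0. The points rise together in each panel, with r of 0.89, 0.86 and 0.90.

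Among themselves 6 of 45 pairs of members passed (permutation, Benjamini-Hochberg over the 45). Bcan rose with Ptprz1 (r = 0.77, adjusted p = 0.00866, rho = 0.81) and with Vcan (r = 0.75, adjusted p = 0.00866, rho = 0.78). Ncan ran against Hapln2 (r = -0.73) and Hapln4 (r = -0.68), and Tnr against Vcan (r = -0.75) and Hapln2 (r = -0.67). The relation of Ncan and Hapln4, the convergent neighbours, did not pass after genotype and sex were taken out, where r was -0.36 (permutation p = 0.151), whereas those of Bcan with Ptprz1 and Vcan were 0.82 and 0.84.

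The genes that build, bind and cut the net were taken from 4 lists with 62 tested genes. In APP/PS1 against WT mice edgeR called 2 of the 62 higher and 1 lower, where 1.5% of all genes were called. In APP/PS1/FTnKO against WT mice 2 were called higher and 3 lower, where 3.87% of all genes were called. In APP/PS1/FTnKO against APP/PS1 mice edgeR called 0, where it called 0.327% of all genes, with 9 at an unadjusted p below 0.05, where 11.5% of all genes had one, and DESeq2 called 0. DESeq2 called 3 of the 64 list genes to which it gave an adjusted p in APP/PS1 against WT mice, where it called 2.19% of all such genes, and 8 of 61 in APP/PS1/FTnKO against WT mice, where it called 7.64%. In the knockout against APP/PS1 mice it called 1.38% of all such genes. With WT mouse 19622 included, Ctss was the one call left against WT in either genotype, while with RIN as a covariate Ctss was the one call left in APP/PS1 and Ctss and Nptx2 were those left in APP/PS1/FTnKO mice against WT. The same fit called Nptx1 in APP/PS1/FTnKO against APP/PS1 mice. Against WT mice, 1.2% of all genes were called in APP/PS1 and 1.51% in APP/PS1/FTnKO mice with 18 mice, and 0.482% and 2.23% with RIN. For the knockout in APP/PS1 mice these shares were 0.0116% with 18 mice and 1.5% with RIN. Of the enzymes that assemble chondroitin sulfate 0 of 20 were called by edgeR in any comparison, with 1, 3 and 3 at an unadjusted p below 0.05, and DESeq2 called 0. Chst12, a chondroitin sulfotransferase, had the smallest p of its list for the knockout in APP/PS1 mice, with 17.3 ± 2.03 against 14.2 ± 0.831 CPM (log2 fold change 0.28, edgeR, FDR 0.149). B3galt6, which builds the linker of the sugar chain, had the smallest p in APP/PS1 against WT mice (0.32, FDR 0.270), and Csgalnact1, which starts chondroitin synthesis, in APP/PS1/FTnKO against WT mice (-0.28, FDR 0.121).

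Among 9 genes for hyaluronan synthesis, binding and turnover, Cd44, the hyaluronan receptor of glia and immune cells, rose in APP/PS1/FTnKO against WT mice, from 2.84 ± 0.997 to 5.60 ± 1.54 CPM (log2 fold change 0.91, edgeR, FDR 0.0406). In APP/PS1 mice it had 5.70 ± 2.16 CPM and a log2 fold change of 0.93 against WT mice that did not pass in edgeR (FDR 0.0589) and passed in DESeq2 (0.92, FDR 0.00654). With RIN as a covariate neither difference of Cd44 from WT mice was called. Cemip, which takes part in hyaluronan breakdown, had the smallest p of its list for the knockout in APP/PS1 mice (0.24, FDR 0.384). Among 15 proteases and inhibitors of the matrix, Ctss, the lysosomal protease cathepsin S of microglia, rose in APP/PS1 against WT mice, from 64.4 ± 7.69 to 172 ± 45.3 CPM (1.38, FDR 0.000803), and in APP/PS1/FTnKO against WT mice (1.02, FDR 0.00958). Timp1, an inhibitor of metalloproteinases, rose in APP/PS1 mice from a low level, 0.220 ± 0.0657 to 0.609 ± 0.194 CPM (1.42, FDR 0.0430), but it was not called in DESeq2 (FDR 0.0727) or with RIN as a covariate (edgeR, FDR 0.343). Timp2 had the smallest p of its list for the knockout in APP/PS1 mice (0.16, FDR 0.256). Microglial markers rose in the same comparisons, with 5 of 9 called in APP/PS1 and 3 of 9 in APP/PS1/FTnKO against WT mice, and their part in the change of Ctss was not tested.

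The list genes called lower by edgeR were all among the 18 receptors and bound ligands of the net. Against WT, 1 was called lower in APP/PS1 and 3 in APP/PS1/FTnKO mice, where 0.178% and 1.65% of all genes were. DESeq2 called 6 of the 18 in APP/PS1/FTnKO against WT mice, with Nptx1, Nptxr and Nfasc in addition, where it called 7.64% of all genes with an adjusted p. Nptx2, a neuronal pentraxin secreted at synapses onto parvalbumin interneurons, had 45.7 ± 7.17 CPM in WT, 35.1 ± 6.20 CPM in APP/PS1 and 31.0 ± 4.61 CPM in APP/PS1/FTnKO mice. It fell by 0.36 on the log2 scale in APP/PS1 mice (edgeR, FDR 0.0484) and by 0.54 in APP/PS1/FTnKO mice (FDR 0.00348), both against WT. Ptprf, a receptor phosphatase of the family that binds chondroitin sulfate, fell in APP/PS1/FTnKO against WT mice from 123 ± 2.57 to 100.2 ± 10.1 CPM (-0.29, FDR 0.0396), and Rtn4r, the Nogo receptor, from 65.8 ± 7.40 to 50.8 ± 7.29 CPM (-0.36, FDR 0.0488). Nptxr, the pentraxin receptor, had the smallest p of its list for the knockout in APP/PS1 mice, with 554 ± 76.6 against 699 ± 161 CPM (-0.33, FDR 0.220). The median log2 fold change of the 18 genes was -0.11, -0.10 and -0.18 in the 3 comparisons, beside -0.0023, -0.0016 and 0.0053 over all genes, and the lower excitatory neuron markers of APP/PS1/FTnKO mice stood beside these values, with no test of their part.

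WT mouse 19622 showed how differently the net genes can stand in a sample that went against its label. Scaled with all 18 mice, Ncan was at 30.1 CPM, 7.33-fold below the mean of 221 CPM of the other 5 WT mice, and Tnr (117.5 CPM), Bcan (217.5 CPM) and Hapln1 (11.1 CPM) also lay below all 17 other mice. Acan at 11.6 CPM was 2.55 times the WT mean of 4.54 CPM, and Hapln2 (61.7 CPM), Hapln4 (245 CPM), Ptprz1 (336 CPM) and Vcan (34.9 CPM) lay above all 17 as well. Has3 lay within their range at 3.63 CPM. In this sample Pvalb was at 308 CPM against 18.1 to 37.2 CPM in the others, the cerebellar markers summed to 3590 CPM against 112 to 147 CPM, the hindbrain markers to 289 CPM against at most 1.65 CPM and the oligodendrocyte markers to 11270 CPM against at most 7945 CPM. Hapln4 and Ncan, which lie 2222 bases apart, thus had 8.14 counts of the former for each of the latter, against 0.507 to 1.16 in the other 17 mice.

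**Figure D5:**
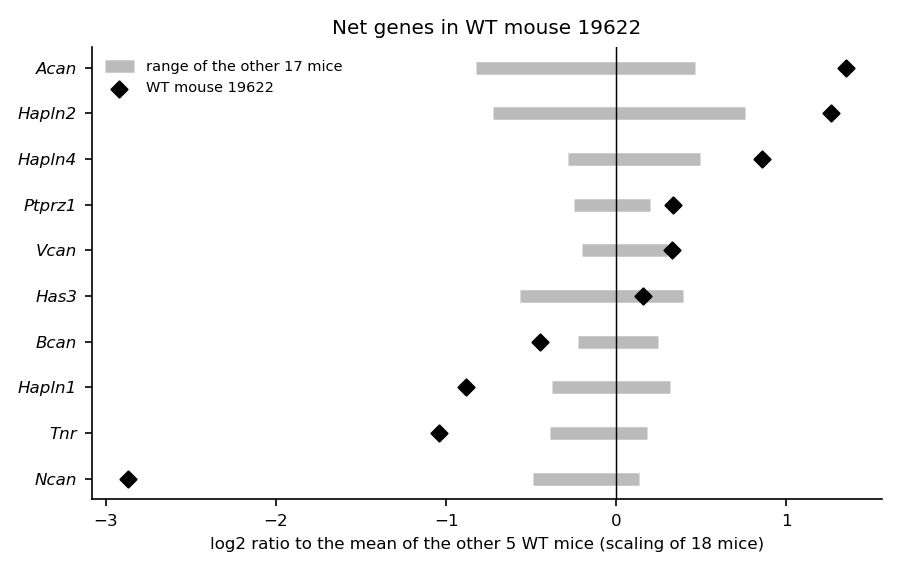
Log2 ratio of each net gene to the mean of the other 5 WT mice, for WT mouse 19622 (diamonds) and as the range of the other 17 mice (grey bars), scaled with all 18 mice. All diamonds but that of Has3 lie outside the bars, with Ncan farthest below and Acan farthest above.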

How the data were processed

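Frontal cortical RNA of 18 mice was sequenced as mRNA libraries that keep strand. Per the labels and the submitters' processing notes, reads were trimmed with Trimmomatic 0.33, aligned to GRCm38 (mm10) with HISAT2 2.1.0 and counted per gene with featureCounts, whose version, annotation and strand setting the sources used here do not name. The deposited values are raw gene counts without normalization, for 55487 genes, and 0 sample columns were unused. Positions and exon lengths came from GENCODE M21 and covered 99.5% of genes, and promoters came from RefSeq.

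Genotypes were compared with the quasi-likelihood test of edgeR 4.0.16 (R 4.3.3) on 17 mice, with genotype and sex as additive terms, TMM scaling, a minimum count of 10 in filterByExpr, Benjamini-Hochberg adjustment over all genes (FDR) and a threshold of 0.05. Intervals use the t quantile of the fit. WT mouse 19622 was left out, as the study did with a WT outlier. Alternatives were DESeq2 1.42.0, RLE normalization, no or a stricter filter (at least 1 CPM in 5 mice), RIN as a covariate, no sex term, only the genotypes compared, all 18 mice, and each mouse left out. DESeq2 on 18 mice was added after the data had been seen. Correlations over mice used log2 CPM (prior count 2) or summed CPM, with scipy 1.17.1. The scripts were tested on simulated data.

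The genes named are all members, of each pathway list the called genes and otherwise the gene with the smallest p, of the marker lists called genes and defining markers, for each member the 3 genes with the highest r, and Fntb, App and Prnp as checks, and some genes of this rule are not reported here. Members and lists were chosen with earlier results of these data known. Total counts were 15925432 to 21030935 per mouse. Counting error weighs most on Acan and Has3. It also adds to the spread of Hapln1 and Hapln2, whose lowest counts in the 17 mice were 277 and 264.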

Additional observations from a re-analysis of the deposited data

Results flagged for a closer look

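Among 40 groups of mice and genes that were checked for a mouse far from the rest, 6 were flagged, and chance alone flags about 1 group in 20. All 6 were WT mouse 19622 among the 6 WT mice, scaled with all 18 mice. It was far below the others in Ncan (30.11 CPM, against 197.7 to 242.6 CPM), Tnr (117.5 CPM, against 225.8 to 275.0 CPM), Bcan (217.5 CPM, against 283.8 to 310.1 CPM) and Hapln1 (11.13 CPM, against 18.77 to 21.87 CPM). It was far above them in Hapln4 (245.2 CPM, against 125.0 to 153.7 CPM) and Hapln2 (61.68 CPM, against 17.59 to 29.56 CPM).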

How the results depend on the processing

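Of 270 results under alternatives other than leaving out a mouse, 244 kept direction and side of the threshold, 10 were no longer past it, 3 newly passed it and 13 changed sign, and the causes were not tested. The signs changed only in log2 fold changes that did not pass in the first place. With RIN as a covariate these were, for APP/PS1 against WT, Bcan (-0.012), Ncan (0.035), Vcan (-0.086), Hapln1 (-0.063) and Tnr (0.0040), for APP/PS1/FTnKO against APP/PS1 Acan (0.037), and for APP/PS1/FTnKO against WT Bcan (-0.053) and Hapln2 (-0.034). With 18 mice they were Ncan in APP/PS1 against WT (0.17 in edgeR, 0.16 in DESeq2) and Hapln2 in APP/PS1/FTnKO against WT (-0.049 and -0.051), and with only the genotypes compared Vcan in the last comparison (4.6e-04). Leaving out a mouse also changed the sign of some small log2 fold changes, which ranged for APP/PS1 against WT over -0.0079 to 0.086 in Hapln1, -0.15 to 0.10 in Hapln2 and -0.037 to 0.022 in Ptprz1, for APP/PS1/FTnKO against APP/PS1 over -0.10 to 0.070 in Acan and -0.090 to 0.030 in Tnr, and for APP/PS1/FTnKO against WT over -0.028 to 0.057 in Bcan, -0.061 to 0.043 in Vcan and -0.18 to 0.0023 in Has3.

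Members called in APP/PS1/FTnKO against APP/PS1 mice numbered 1 in the main fit, 0 with 18 mice (edgeR and DESeq2), 2 with DESeq2 (Hapln1 added), 2 with RIN (Ncan added, -0.26, FDR 0.0366), 0 with only the genotypes compared and 0 to 1 with a mouse left out. Between APP/PS1/FTnKO and WT mice there were 2, and 0 with 18 mice (edgeR and DESeq2), 1 with RIN, 1 with only the genotypes compared and 0 to 2 with a mouse left out. Between APP/PS1 and WT mice there were 0 under every setting.

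Over all genes APP/PS1 against WT gave 261 calls, and 458 with DESeq2, 422 with DESeq2 on 18 mice, 452 without a filter, 84 with RIN and 124 to 465 with a mouse left out. APP/PS1/FTnKO against APP/PS1 gave 57, and 2 with 18 mice, 244 with DESeq2, 34 with DESeq2 on 18 mice, 104 without a filter, 261 with RIN, 5 with only the genotypes compared and 10 to 81 with a mouse left out (10 without APP/PS1 mouse 19554). APP/PS1/FTnKO against WT gave 674, and 261 with 18 mice, 1302 with DESeq2, 388 with RIN and 206 to 987 with a mouse left out (206 without WT mouse 19053). Of the pairs of members 6 passed a correlation test, 15 after genotype and sex were taken out and 18 with WT mouse 19622. No paired analysis was possible because each mouse has its own number and the labels tie no mice together.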

Other observations

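For each member the tested genes with the highest Pearson r over the 17 mice (log2 CPM, 17413 other genes) were listed as a description, with no test since they were picked for their r. Tnr was most like Nell2 (r = 0.97, rho = 0.96), Herc3 (0.96) and Ap2b1 (0.96). Hapln2 was most like Ppp1r14a (r = 0.94, rho = 0.92), Septin4 (0.92) and Pde8a (0.92). Ncan was most like Fbxl18 (r = 0.94, rho = 0.96), Cbx6 (0.93) and Wnt7b (0.93), and Bcan like Agmo (r = 0.92, rho = 0.90), Epas1 (0.91) and mt-Nd1 (0.90). Ptprz1 had Plekhm2 (r = 0.86, rho = 0.87), Slc1a3 (0.85), the glutamate transporter of astrocytes, and Sox2 (0.84), and Vcan had Cdk5rap3 (r = 0.89, rho = 0.86), Hepacam (0.89) and Gpr146 (0.89). For Hapln4 the closest were Cep135 (r = 0.86, rho = 0.85), Ccdc66 (0.86) and Ncdn (0.83), and for Hapln1 Egln1 (r = 0.88, rho = 0.89), Atp5mpl (0.87) and Cox7a2 (0.85). Acan and Has3, the members with the fewest counts, had the lowest values, with Ttc39c (r = 0.80, rho = 0.69) and Hba-a2 (r = 0.81, rho = 0.64).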
